A study of Rattus norvegicus with 12 samples.

Results

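Interferon-stimulated genes are the genes that cells switch on to resist viruses. In mammals a type I interferon binds the receptor chains Ifnar1 and Ifnar2, and the receptor-bound kinases Jak1 and Tyk2 then phosphorylate signal transducers such as Stat2. Phosphorylated Stat2 joins Irf9 in a complex that binds a promoter sequence, the interferon-stimulated response element (ISRE), in front of the target genes. Their products sense foreign nucleic acid, cut or trap viral RNA, stall translation, tag proteins with the ubiquitin-like modifier Isg15, and feed back on the pathway. In cultured vascular smooth muscle cells the same pathway can be switched on by added interferon or by foreign nucleic acid.

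The 40 genes described here were chosen by symbol, as the rows of the deposited gene table whose symbols stand on a list of 40 names. The rule itself uses no measured value. However, this list and the further gene lists below were drawn up with earlier results of these data known. Their counts therefore do not come from a blind choice. All 40 were found among the 22081 genes of the table, and all 40 passed the filter on low counts that left 14825 tested genes. The list holds interferon-stimulated genes and also the receptor and kinase genes Ifnar1, Ifnar2, Jak1 and Tyk2, which act before them and are not known chiefly as targets.

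Messenger RNA was sequenced from primary aortic smooth muscle cells of Wistar rats at passages 5 to 8, grown in medium with 20% serum. WT cells are wild-type for Thbs1, the gene of the matrix protein thrombospondin-1 (Tsp1). Tsp1 KO cells were transfected with a plasmid that carries Cas9, GFP and a guide RNA against Thbs1, sorted for GFP and grown from single cells. How many clones were used is not given in the sources used here, nor whether WT cells went through transfection, sorting and cloning, so a difference between the genotypes and a difference between clones or their handling cannot be told apart. All cells had 24 h without serum on coated silicone plates. They were then left static or stretched cyclically along 1 axis by 20% at 1.0 Hz, for a time the sources used here do not give. Each of the 4 groups (WT static, WT stretch, KO static, KO stretch) has 3 libraries, numbered 1 to 3, so 12 in all. Nothing states that these came from separate cultures, so the p-values measure the spread between these libraries, which may be technical.

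The libraries held 16766965 to 38024110 exon reads each. Thbs1 itself was lower in KO cells, at a mean of 556 against 2660 CPM (exon read counts scaled to the size of the library) in static and 379 against 1440 CPM in stretched cells, with a log2 fold change of -2.26 ± 0.24 (SE, FDR 3.96e-05) and -1.92 ± 0.24 (FDR 0.000129). Libraries numbered 3 stood apart in every group, with 9.15% to 11.29% of gene reads in introns against 14.75% to 16.46% in the other libraries, and KO stretch library 3 also had 16.38% of exon reads across exon junctions against 28.07% to 29.84% elsewhere. The smooth muscle markers were present, with Acta2 at 2170 and Tagln at 2240 CPM in WT static cells. The summed level of the 9 markers was 5910 to 7370 CPM in WT and 3930 to 5280 CPM in KO libraries, but the markers did not move together. Between the WT and KO static means, Acta2 went from 2170 to 1260 and Cald1 from 1470 to 1040 CPM, Tagln stood at 2240 CPM in both, and Myocd went from 2.96 to 13.7, Myh11 from 16.3 to 26.4 and Smtn from 177 to 286 CPM. The 7 leukocyte markers in the table, which include the pan-leukocyte gene Ptprc, summed to 1.82 to 3.57 CPM in all 12 libraries, and the 5 endothelial markers to 4.86 to 13 CPM. The 5 fibroblast markers summed to 439 to 550 CPM in WT and 611 to 796 CPM in KO libraries, with Lum at 236 and 444 CPM in WT and KO static cells and Pdgfra, in the other direction, at 51.8 and 33.7 CPM. The 8 epithelial and mesothelial markers summed to 30.2 to 39.7 and 43.4 to 71.0 CPM, with Krt8 at 24.0 and 44.3 CPM and Wt1 at 1.13 and 0.392 CPM in WT and KO static cells. No marker in the table was at 0 in every library. The part of these marker differences in the results was not tested, and in bulk RNA more cells of a type and more RNA per cell cannot be told apart.

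Promoters of 29 of the 40 genes were matched by symbol in RefSeq (rat build GRCr8, 250 bases before to 50 bases after the start of each gene). The ISRE core, searched as GAAA, any 2 bases and GAAA again on both strands with overlapping matches allowed, was present in 15 of the 29 (51.7%) and in 3.77% of all 27457 promoters of the same length. The gamma-activated site, another element of interferon responses, was searched as TTCNNNGAA on both strands and was present in 7 of the 29 (24.1%) against 8.68% of all promoters. A match is a string of letters and does not show that a factor binds there. The 6 genes shown are those with an ISRE core before the start and the smallest adjusted p-values in the expression tests given further on, because the element is what the pathway's transcription factors recognise. The ISRE core is in capitals, and a match on the other strand reads TTTC, 2 bases and TTTC. The windows lie at chr6:48788233-48788292 (minus strand) for Rsad2, whose core ends 138 bases before the start, and at chr1:205800058-205800117 (minus strand) for Irf7, whose core ends 60 bases before it. The others lie at chr12:41330400-41330459 (plus strand) for Oas1a, chr2:234005671-234005726 (plus strand) for Gbp2, chr1:241527257-241527316 (plus strand) for Ifit3 and chr2:243303841-243303891 (minus strand) for Ifi44. In Oas1a a second core overlaps the capitals and runs on by 6 bases. Each line reads 5′ to 3′ on the strand of the gene.
Rsad2: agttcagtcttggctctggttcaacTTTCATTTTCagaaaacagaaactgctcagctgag
Irf7: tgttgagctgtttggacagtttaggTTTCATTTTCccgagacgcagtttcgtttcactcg
Oas1a: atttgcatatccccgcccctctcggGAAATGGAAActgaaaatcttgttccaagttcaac
Gbp2: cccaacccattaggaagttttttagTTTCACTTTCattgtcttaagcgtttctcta
Ifit3: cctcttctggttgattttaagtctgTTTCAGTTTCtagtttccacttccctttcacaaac
Ifi44: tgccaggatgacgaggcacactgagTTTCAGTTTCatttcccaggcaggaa

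Tsp1 KO cells held higher levels of most of these genes than WT cells, both static and stretched. Read counts were compared with edgeR's quasi-likelihood F test, adjusted by Benjamini-Hochberg over all 14825 genes (FDR), and a gene is said to have risen or fallen at FDR under 0.05. In static cells 32 of the 40 genes rose and 0 fell, where 12.1% of all tested genes rose and 8.66% fell. Under stretch 28 rose and 0 fell, against 11.9% and 8.73% of all genes. Over the 40 genes the log2 fold change had a median of 1.20 in static and 1.08 in stretched cells, beside 0.01 and 0.00 over all tested genes. In each comparison 21 of the 40 rose at least 2-fold, beside 1021 in static and 982 in stretched cells of all 14825 tested genes. Across both comparisons 27 genes rose, which is 84.4% of the static list and 96.4% of the stretch list. How many of all tested genes rose in both was not counted. These 2 comparisons share no library, but they come from the same fit and may share clones, so the overlap is not independent support. Herc6, Ifih1, Irf1, Isg20 and Oasl passed the test in static cells alone and Oas2 under stretch alone. The test of a difference in the KO effect between the conditions passed for 0 of the 40 genes. It also passed for 0 of all 14825 tested genes, so it does not show that the effects were equal.

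In static cells the 3 KO libraries lay above the 3 WT libraries in 34 of the 40 genes, against 18.9% of all tested genes, and under stretch in 30, against 18.2%. In 28 genes all 6 KO libraries lay above all 6 WT libraries, where 11.2% of all tested genes did so. The median over the 40 genes, relative to the WT static mean, was between -0.09 and 0.14 on the log2 scale in each of the 6 WT libraries and between 0.92 and 1.49 in each of the 6 KO libraries. Paired by library number, the median log2 ratio of KO to WT was 1.35, 0.76 and 1.14 in static cells for numbers 1, 2 and 3, and 1.25, 0.94 and 1.05 under stretch. The rise was thus present in the libraries numbered 3 and in the others, and was smallest in number 2 in both conditions. With the library number as a block, 34 of the genes rose in static and 35 in stretched cells, where 19.8% and 19% of all tested genes rose. In the authors' deposited table, 30 and 29 of the 40 genes rose at the authors' false discovery rate under 0.05, and 0 fell. Of all 22081 genes in that table, 2381 in static and 2446 in stretched cells passed in either direction.

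**Figure D1:**
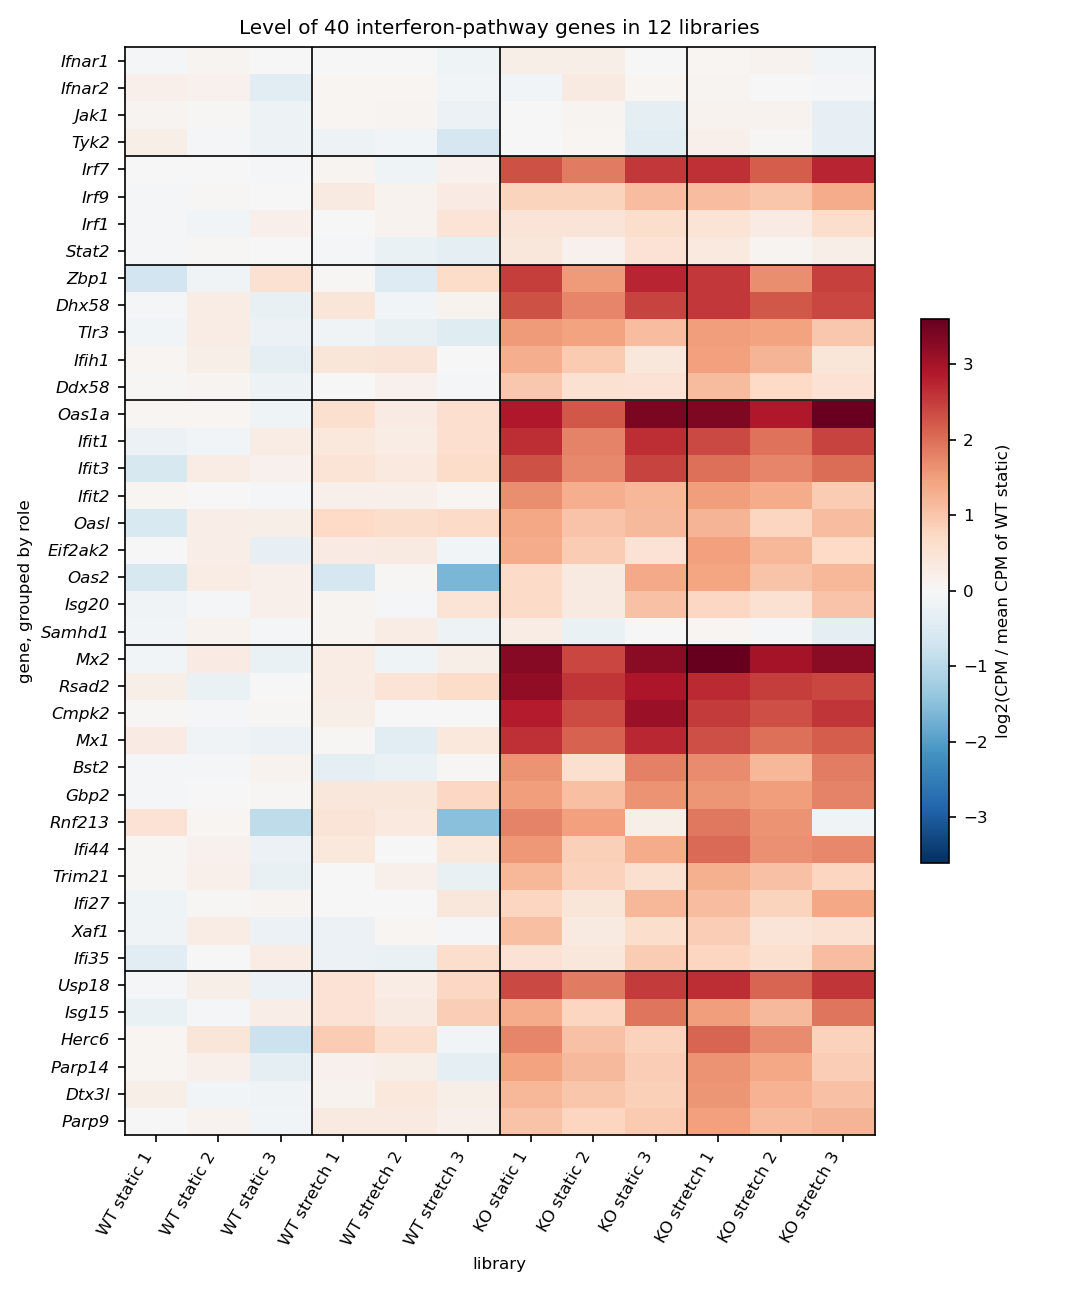
Level of each of the 40 genes in each of the 12 libraries, as log2 of its CPM over the mean CPM of the 3 WT static libraries (red higher, blue lower), with genes grouped by role from receptors at the top to the Isg15 system at the bottom. The KO columns are red in most rows except the top block of receptor and kinase genes and Samhd1.

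The receptor and its kinases did not pass the test in either comparison, 0 of 4 genes. Their median log2 fold change was 0.02 in static and 0.05 in stretched cells. Jak1, the kinase bound to Ifnar2 and the member with the highest level per length of this group, was at 263, 254 and 217 CPM in static WT, 258, 260 and 211 in stretched WT, 248, 260 and 194 in static KO, and 267, 269 and 201 in stretched KO libraries. The groups overlapped, and the library numbered 3 was the lowest of each group. For Jak1 the log2 fold change of KO over WT was -0.06 ± 0.15 in static (FDR 0.851) and 0.01 ± 0.15 in stretched cells (FDR 0.971). Ifnar1 was at 88.1, 99.4 and 92.0 CPM in static WT, 94.5, 91.4 and 82.9 in stretched WT, 107, 108 and 93.8 in static KO, and 97.6, 102 and 86.2 in stretched KO libraries. Its groups overlapped, with a log2 fold change of 0.14 ± 0.10 in static (FDR 0.385) and 0.09 ± 0.10 in stretched cells (FDR 0.619). Ifnar2, the chain that holds Jak1, was at 24.9, 24.4 and 16.6 CPM in static WT, 23.1, 23.2 and 20.3 in stretched WT, 20.6, 27.3 and 22.8 in static KO, and 23.4, 22.2 and 21.1 in stretched KO libraries. This gave a log2 fold change of 0.11 ± 0.16 in static (FDR 0.740) and 0.00 ± 0.16 in stretched cells (FDR 0.990). Tyk2, the kinase bound to Ifnar1, was at 39.5, 32.4 and 29.6 CPM in static WT, 29.8, 31.4 and 22.2 in stretched WT, 33.9, 35.8 and 25.7 in static KO, and 38.7, 35 and 27.3 in stretched KO libraries. Here the groups overlapped too, with a log2 fold change of -0.09 ± 0.19 in static (FDR 0.821) and 0.28 ± 0.19 in stretched cells (FDR 0.369). With the library number as a block Tyk2 passed under stretch, at a log2 fold change of 0.28 (FDR 0.0184). Ifnar2 and Ifnar1 are both on chromosome 11 (from 31539016 to 31558851 and from 31640407 to 31664061 in the build Rnor_6.0), with Il10rb between them (from 31560530 to 31582457).

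The transcription factors of the pathway rose, 4 of 4 in static and 3 of 4 in stretched cells. Irf7, the factor that drives interferon genes themselves (ENSRNOG00000017414, chromosome 1 from 214248837 to 214252456 in Rnor_6.0), was at 25.1, 25.2 and 24.0 CPM in static WT, 26.3, 22.3 and 27.4 in stretched WT, 121, 90.8 and 146 in static KO, and 152, 112 and 166 in stretched KO libraries. Every KO library held more than 3 times the highest WT level. This was a log2 fold change of 2.27 ± 0.19 in static (FDR 5.16e-06) and 2.51 ± 0.19 in stretched cells (FDR 2.54e-06). Irf7 shares 65 bases with Phrf1, for which KO gave log2 fold changes of -0.14 (FDR 0.546) and -0.06 (FDR 0.818). Irf9, the DNA-binding partner of Stat2, was at 21.4, 22.9 and 22.8 CPM in static WT, 27.8, 24.6 and 27.6 in stretched WT, 39.0, 39.0 and 48.4 in static KO, and 48.6, 45.0 and 56.3 in stretched KO libraries. The genotypes did not overlap, and the log2 fold change was 0.91 ± 0.12 in static (FDR 0.000156) and 0.91 ± 0.12 in stretched cells (FDR 0.000152). Stat2, the signal transducer of the same complex, moved less, from a mean of 67.9 ± 1.73 to 87.8 ± 11.1 CPM in static cells (SD, n = 3), a log2 fold change of 0.37 ± 0.12 (FDR 0.0414), and by 0.43 ± 0.12 under stretch (FDR 0.0203). Stat2 no longer passed in 6 of the 12 fits that left out 1 library in static cells, those without WT static 1, 2 or 3, WT stretch 2 or KO static 1 or 3, with an FDR up to 0.141 without KO static 3. Under stretch it was lost in 3 of them, those without WT stretch 2 or 3 or KO stretch 1, with an FDR up to 0.101 without WT stretch 2. Irf1, a factor induced early by interferon, had a log2 fold change of 0.52 ± 0.14 in static cells (FDR 0.0212) and 0.26 ± 0.14 under stretch (FDR 0.240, and 0.0145 with the block). The static call for Irf1 was lost when WT static library 1 or 2 or KO static library 3 was left out, at FDR up to 0.0862, and under stretch Irf1 passed without WT stretch library 3 (FDR 0.0492).

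The sensors of foreign nucleic acid rose in 5 of 5 genes in static and 4 of 5 in stretched cells. Dhx58 (LGP2), which tunes the RNA sensors Ddx58 and Ifih1 (ENSRNOG00000018247, chromosome 10 from 88599680 to 88611105), was at 6.94, 8.77 and 5.99 CPM in static WT, 9.80, 6.79 and 7.94 in stretched WT, 35.1, 24.6 and 38.9 in static KO, and 42.5, 34.2 and 38.4 in stretched KO libraries. All 6 KO libraries lay above all WT libraries, with a log2 fold change of 2.19 ± 0.21 in static (FDR 1.47e-05) and 2.23 ± 0.20 in stretched cells (FDR 1.19e-05). Tlr3, the endosomal receptor for double-stranded RNA (ENSRNOG00000021726, chromosome 16 from 50016857 to 50031214), was at 16.4, 21 and 15.1 CPM in static WT, 16.1, 14.5 and 12.9 in stretched WT, 50.9, 47.5 and 37.9 in static KO, and 49.4, 47.6 and 34.2 in stretched KO libraries. Again the genotypes did not overlap, and the log2 fold change was 1.38 ± 0.18 in static (FDR 0.000186) and 1.59 ± 0.18 in stretched cells (FDR 6.25e-05). Zbp1, a sensor of left-handed nucleic acid, was barely detected in WT cells, with 0.124 to 0.315 CPM, and stood at 0.573 to 1.33 CPM in KO cells. Its log2 fold change was 2.31 ± 0.46 in static (FDR 0.00384) and 2.12 ± 0.44 in stretched cells (FDR 0.00466).

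The other sensors are the helicases that Dhx58 tunes. Ddx58 (RIG-I) rose from 25.8 ± 2.5 to 41.7 ± 7.68 CPM in static cells and from 26.2 ± 2.18 to 45.2 ± 10.3 CPM under stretch, a log2 fold change of 0.69 ± 0.17 (FDR 0.0136) and 0.79 ± 0.17 (FDR 0.00630). The static call was lost without WT static library 3 (FDR 0.0588) or KO static library 1 (FDR 0.0614). Ifih1 (MDA5) rose from 15.7 ± 2.91 to 30.0 ± 9.06 CPM in static cells (0.93 ± 0.28, FDR 0.0371). Under stretch Ifih1 had a log2 fold change of 0.79 ± 0.28 (FDR 0.0712, and 0.000278 with the block). The static call for Ifih1 depended on single libraries: it was lost in 7 of 12 fits, those without WT static 1, 2 or 3, WT stretch 1, KO static 1 or 2 or KO stretch 2, with an FDR of 0.149 without KO static 1. The stretch comparison passed in 2 of them, those without KO static 3 or KO stretch 3, with an FDR of 0.0122 without KO stretch library 3.

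**Figure D2:**
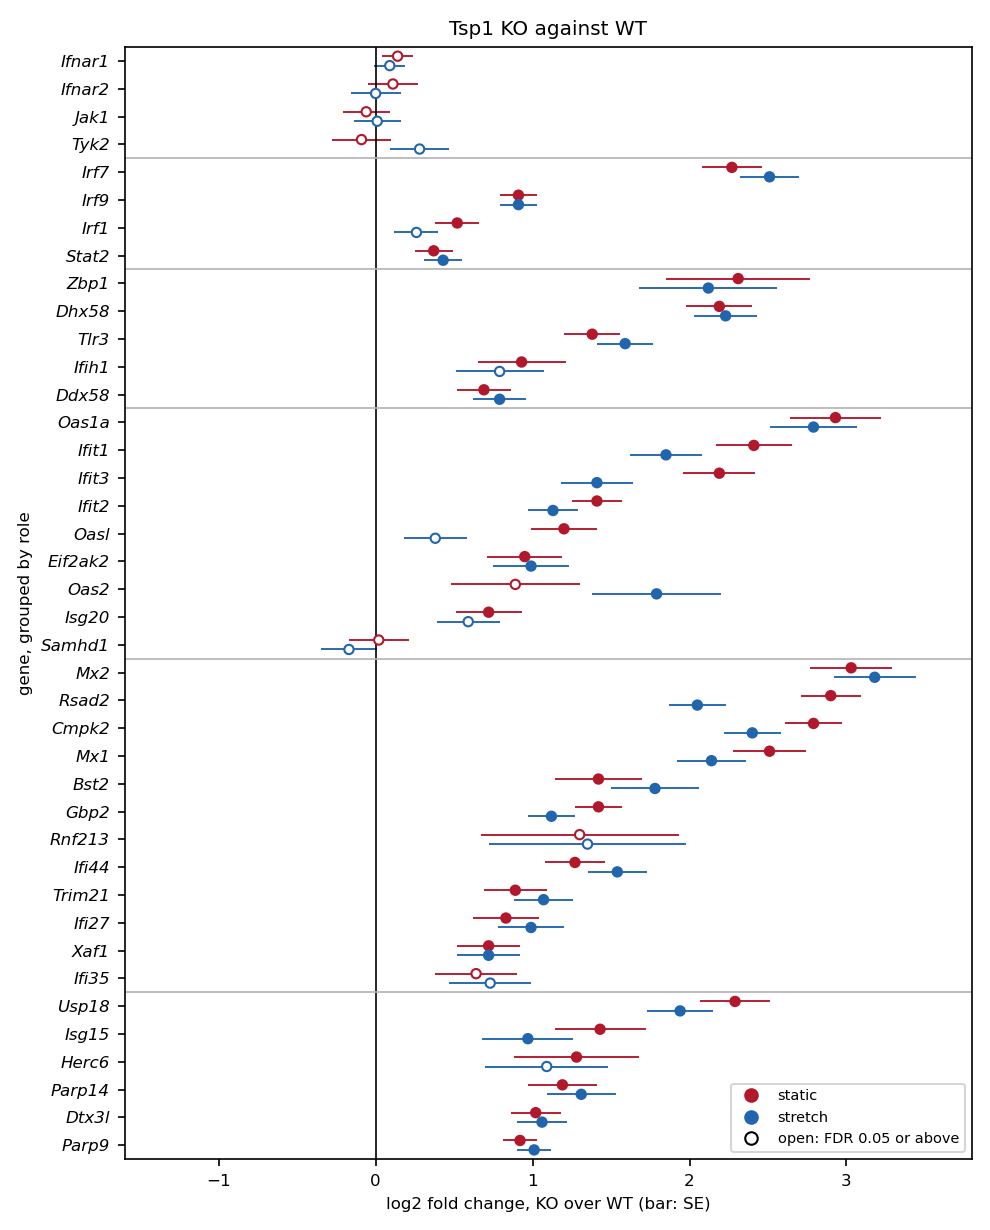
Log2 fold change of KO over WT for each of the 40 genes in static (red) and stretched (blue) cells, with the standard error as a bar. Filled points passed FDR under 0.05, and the points range from -0.17 for Samhd1 under stretch to 3.18 for Mx2 under stretch.

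Genes whose products cut RNA or block translation rose in 7 of 9 in static and 6 of 9 in stretched cells. Oas1a makes oligoadenylate when it meets double-stranded RNA and was at 2.39, 2.40 and 2.04 CPM in static WT, 3.38, 2.79 and 3.50 in stretched WT, 16.9, 10.8 and 24.1 in static KO, and 23.2, 16.7 and 26.7 in stretched KO libraries. It rose with a log2 fold change of 2.93 ± 0.29 in static (FDR 1.96e-05) and 2.79 ± 0.28 in stretched cells (FDR 2.16e-05). Oas1a is uncertain, because 73.8% of its exon reads mapped uniquely and it has close relatives, while in the other 39 genes at least 93.2% did. With unique reads alone it kept its call in both comparisons.

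The genes Ifit2, Ifit3 and Ifit1 encode proteins that bind foreign RNA and hold back its translation. They lie in a cluster on chromosome 1 (from 252894663 to 252900726, from 252906234 to 252911382 and from 252944103 to 252946170). Ifit1 was at 4.75, 5.11 and 6.57 CPM in static WT, 7.16, 6.64 and 8.33 in stretched WT, 34.4, 19 and 34.4 in static KO, and 28.6, 21.4 and 29.5 in stretched KO libraries. Its log2 fold change was 2.41 ± 0.24 in static (FDR 2.19e-05) and 1.85 ± 0.23 in stretched cells (FDR 0.000142). For Ifit3 the levels were 4.13, 7.51 and 6.91 CPM in static WT, 8.70, 7.86 and 9.79 in stretched WT, 30.0, 20.4 and 33.4 in static KO, and 24.2, 20.9 and 25.1 in stretched KO libraries. Ifit3 changed by 2.19 ± 0.23 in static (FDR 3.83e-05) and 1.41 ± 0.23 in stretched cells (FDR 0.0008). Ifit2, per length the highest of the cluster in WT static cells at 8.13 RPKM against 2.27 RPKM for Ifit3 and 1.98 RPKM for Ifit1, was at 38.7, 37.7 and 35.3 CPM in static WT, 41.9, 42.5 and 39.2 in stretched WT, 118, 92.1 and 85.8 in static KO, and 106, 94.4 and 69.5 in stretched KO libraries. It rose by a log2 fold change of 1.41 ± 0.16 in static (FDR 5.87e-05) and 1.13 ± 0.16 in stretched cells (FDR 0.000296). No KO library of the cluster overlapped a WT library.

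Oasl, an Oas relative that binds RNA sensors, was at 3.06, 5.29 and 5.20 CPM in static WT, 7.44, 6.93 and 7.31 in stretched WT, 11.8, 9.20 and 10.1 in static KO, and 10.6, 7.69 and 9.83 in stretched KO libraries. Stretched WT libraries lay above static WT libraries, and no KO library overlapped them. The log2 fold change of KO over WT was 1.20 ± 0.21 in static (FDR 0.00144) and 0.38 ± 0.20 in stretched cells (FDR 0.240). Oas2 was also barely detected, at 0.175 to 0.661 CPM in WT and 0.695 to 1.48 CPM in KO libraries, with a log2 fold change of 0.89 ± 0.41 in static (FDR 0.168) and 1.79 ± 0.41 in stretched cells (FDR 0.00833). Eif2ak2 (PKR), the kinase that stops translation on double-stranded RNA, rose by 0.95 ± 0.24 (FDR 0.0145) and 0.99 ± 0.24 (FDR 0.0113). Its call was lost in static cells without WT static library 3 (FDR 0.0629) or KO static library 1 (FDR 0.0667), and under stretch without KO stretch library 1 (FDR 0.0517). Isg20, an exonuclease of RNA, rose by 0.72 ± 0.21 in static cells (FDR 0.0281) and had 0.59 ± 0.20 under stretch (FDR 0.0638, and 0.000155 with the block). For Isg20 the static call was lost in 4 of 12 fits, those without WT static 1 or 2 or KO static 1 or 3, with an FDR of 0.115 without KO static 3. The stretch comparison passed in 3 of them, those without WT stretch 3 or KO static 2 or 3, with an FDR of 0.0281 without WT stretch library 3. Samhd1, which depletes nucleotides needed by retroviruses, was at 3.87 to 5.85 CPM in all 12 libraries, with log2 fold changes of 0.02 ± 0.19 (FDR 0.966) and -0.17 ± 0.18 (FDR 0.616).

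Other antiviral effectors rose in 10 of 12 genes in each comparison and held the largest changes. Mx2, a GTPase that traps viral ribonucleoproteins (ENSRNOG00000001963, chromosome 11 from 38035450 to 38059950), was at 30.4, 40.3 and 27.8 CPM in static WT, 39.5, 29.3 and 38.0 in stretched WT, 319, 173 and 310 in static KO, and 394, 262 and 314 in stretched KO libraries. The lowest KO library was more than 4 times the highest WT library. The log2 fold change of Mx2 was 3.03 ± 0.26 in static (FDR 7.4e-06) and 3.18 ± 0.26 in stretched cells (FDR 5.04e-06). The related GTPase gene Mx1 (ENSRNOG00000001959, chromosome 11 from 37891156 to 37914983) was at 6.36, 4.75 and 4.45 CPM in static WT, 5.37, 3.93 and 6.72 in stretched WT, 32.1, 22.6 and 34.0 in static KO, and 26.0, 20.7 and 23.7 in stretched KO libraries. Mx1 had a log2 fold change of 2.51 ± 0.23 in static (FDR 1.1e-05) and 2.14 ± 0.22 in stretched cells (FDR 3.23e-05). Per kilobase of exon, Mx2 was the gene 17 of the 40 by level in WT static cells at 8.34 ± 1.59 RPKM and gene 2 in KO static cells at 69.4 ± 22.8 RPKM (SD, n = 3). Ifi27 stood above it in both groups, at 146 ± 19.8 and 266 ± 85.9 RPKM, and Jak1 went from gene 2 to gene 5 at 42.4 ± 2.58 and 41.0 ± 4.19 RPKM.

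Rsad2 and Cmpk2 lie near each other on chromosome 6, from 45655954 to 45669148 and from 45683234 to 45694822. Rsad2 (viperin), which makes a nucleotide that ends viral RNA chains, was at 5.08, 3.72 and 4.49 CPM in static WT, 5.33, 6.18 and 6.96 in stretched WT, 40.5, 26.4 and 33 in static KO, and 28.6, 24.9 and 23.4 in stretched KO libraries. Rsad2 had a log2 fold change of 2.90 ± 0.19 in static (FDR 7.39e-07) and 2.05 ± 0.18 in stretched cells (FDR 7.15e-06). Cmpk2, a mitochondrial nucleotide kinase, was at 3.96, 3.66 and 3.95 CPM in static WT, 4.43, 3.86 and 3.88 in stretched WT, 27.4, 19.8 and 33.2 in static KO, and 22.2, 19.1 and 22.8 in stretched KO libraries. Cmpk2 had a log2 fold change of 2.79 ± 0.18 in static (FDR 7.87e-07) and 2.40 ± 0.18 in stretched cells (FDR 2.14e-06). In both genes the KO libraries lay at or above 19.1 CPM and the WT libraries at or below 6.96 CPM.

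Gbp2, a guanylate-binding protein that attacks membranes of intracellular pathogens (ENSRNOG00000031743, chromosome 2 from 248276709 to 248293784), was at 51.2, 53.2 and 55.2 CPM in static WT, 70.0, 70.3 and 88.7 in stretched WT, 152, 112 and 163 in static KO, and 161, 152 and 185 in stretched KO libraries. The genotypes did not overlap, and the log2 fold change was 1.42 ± 0.15 in static (FDR 3.4e-05) and 1.12 ± 0.15 in stretched cells (FDR 0.000198). Ifi44 (ENSRNOG00000022218, chromosome 2 from 256897772 to 256915569) was at 13.4, 14.7 and 11.3 CPM in static WT, 17.2, 13.2 and 16.9 in stretched WT, 38.6, 23.6 and 33.2 in static KO, and 53.7, 40.7 and 43.2 in stretched KO libraries. Its log2 fold change was 1.27 ± 0.19 in static (FDR 0.00056) and 1.54 ± 0.19 in stretched cells (FDR 0.000125). Bst2 (tetherin) holds budding virus at the cell surface (ENSRNOG00000059900, chromosome 16 from 19938784 to 19942353) and was at 6.48, 6.61 and 7.41 CPM in static WT, 5.33, 5.79 and 7.10 in stretched WT, 21, 10.2 and 23.8 in static KO, and 22.4, 15.7 and 24.6 in stretched KO libraries. KO static library 2 was the lowest of the KO libraries and still above every WT library. Bst2 rose with a log2 fold change of 1.42 ± 0.28 in static (FDR 0.00345) and 1.78 ± 0.28 in stretched cells (FDR 0.000728).

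**Figure D3:**
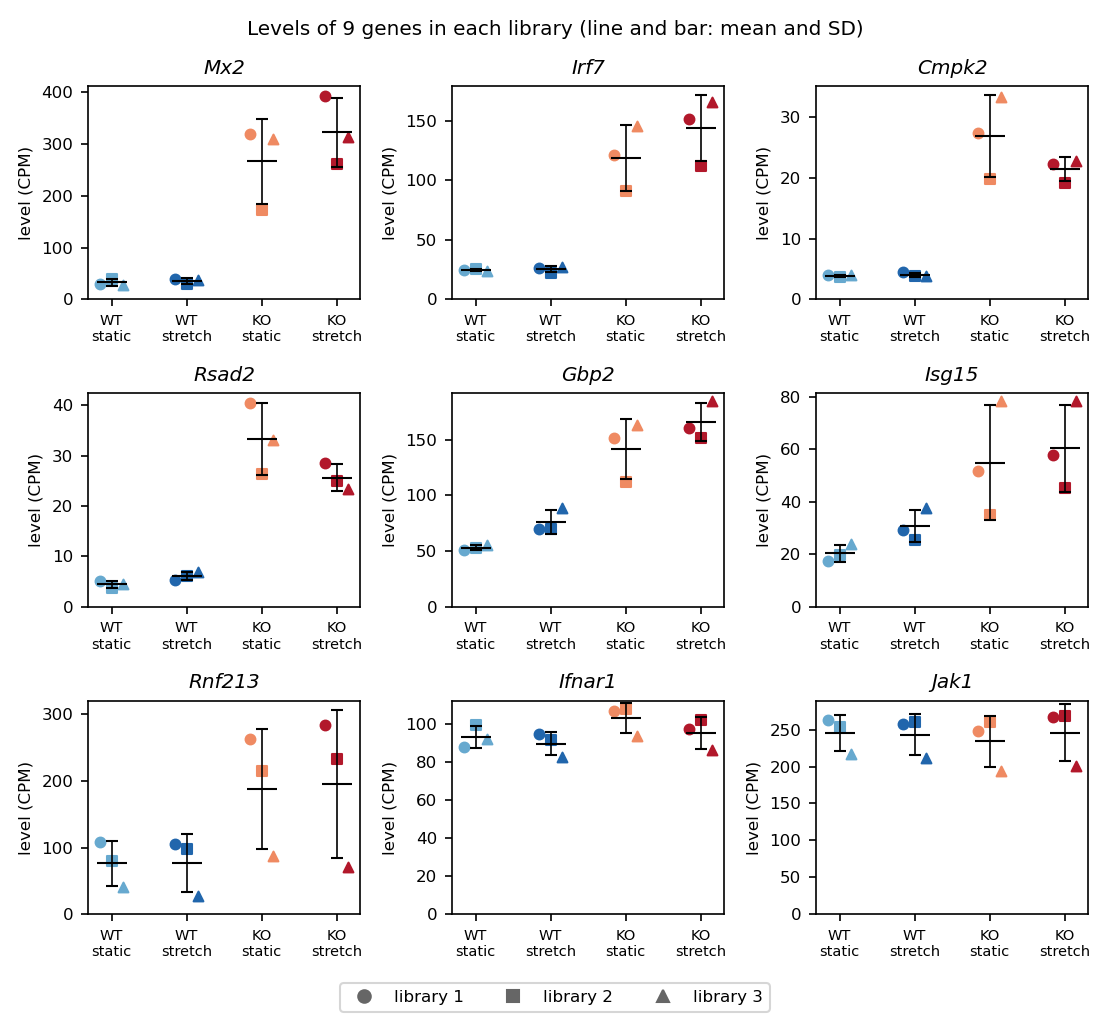
Level in CPM of 9 of the genes in each library, with the mean and SD of 3 libraries per group and a marker shape for each library number. KO libraries lie above WT libraries for Mx2, Irf7, Cmpk2, Rsad2 and Gbp2, the libraries numbered 3 (triangles) are low in every group for Rnf213, and the groups overlap for Ifnar1 and Jak1.

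Among the remaining effectors, Trim21, a ubiquitin ligase that reads antibodies inside the cell, rose by 0.89 ± 0.20 (FDR 0.00674) and 1.07 ± 0.19 (FDR 0.00196). Ifi27 rose by 0.83 ± 0.21 (FDR 0.0152) and 0.99 ± 0.21 (FDR 0.00562), and its static call was lost without WT static library 1 (FDR 0.0671) or KO static library 3 (FDR 0.0608). Xaf1, known as a partner of a caspase inhibitor, rose by 0.72 ± 0.20 in each comparison (FDR 0.0245 and 0.0237). Xaf1 lost its call in 3 of 12 fits in static cells, those without WT static 1 or 3 or KO static 1, with an FDR of 0.103 without KO static 1. Under stretch it lost it in 4, those without WT stretch 1, 2 or 3 or KO stretch 1, with an FDR of 0.0989 without KO stretch library 1. Rnf213, a very large ubiquitin ligase with 15411 bases of exon, and Ifi35 did not pass in either comparison. Rnf213 was at 109, 79.5 and 40.7 CPM in static WT, 105, 98.3 and 26.7 in stretched WT, 262, 214 and 87.6 in static KO, and 283, 232 and 70.3 in stretched KO libraries. The library numbered 3 was the lowest of every group, and the groups overlapped. The log2 fold change was 1.30 ± 0.63 in static (FDR 0.195) and 1.35 ± 0.63 in stretched cells (FDR 0.172). With the block Rnf213 passed in both (FDR 1.08e-05 and 5.39e-06), and within numbers 1, 2 and 3 its log2 ratio of KO to WT was 1.27, 1.43 and 1.11 in static and 1.44, 1.24 and 1.40 in stretched cells. Ifi35 had log2 fold changes of 0.64 ± 0.26 (FDR 0.117, and 0.00117 with the block) and 0.73 ± 0.26 (FDR 0.0706, and 0.000264 with the block). Ifi35 passed when WT stretch library 3 was left out, at FDR 0.0451 in static and 0.00727 in stretched cells.

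The Isg15 system and its ADP-ribosylating partners rose in 6 of 6 genes in static and 5 of 6 in stretched cells. Isg15, the ubiquitin-like modifier (ENSRNOG00000021802, chromosome 5 from 173624310 to 173626248), was at 17.4, 19.8 and 23.9 CPM in static WT, 29.3, 25.5 and 37.7 in stretched WT, 51.6, 35 and 78.2 in static KO, and 57.7, 45.4 and 78.2 in stretched KO libraries. KO static library 2, at 35 CPM, lay below WT stretch library 3. Its log2 fold change was 1.43 ± 0.29 in static (FDR 0.00414) and 0.97 ± 0.29 in stretched cells (FDR 0.0321). Under stretch the Isg15 call was lost in 4 of 12 fits, those without WT stretch 1 or 2 or KO stretch 1 or 3, with an FDR of 0.152 without WT stretch library 2. Usp18, which removes Isg15 from proteins and damps the receptor (ENSRNOG00000037198, chromosome 4 from 153805993 to 153834430), was at 8.01, 9.61 and 7.11 CPM in static WT, 11.8, 9.93 and 13.9 in stretched WT, 43.1, 30.0 and 47.4 in static KO, and 52.0, 35.5 and 49.1 in stretched KO libraries. All KO libraries lay above all WT libraries, with a log2 fold change of 2.29 ± 0.22 in static (FDR 1.47e-05) and 1.94 ± 0.21 in stretched cells (FDR 4.44e-05).

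Parp9, Dtx3l and Parp14 are close on chromosome 11 (from 67724076 to 67756799, from 67757928 to 67767622 and from 68105369 to 68137535), and Parp9 and Dtx3l encode a pair of proteins that work as a complex. Parp9 was at 39.4, 43.1 and 37 CPM in static WT, 49.8, 49.6 and 45.4 in stretched WT, 81.8, 67.7 and 76.6 in static KO, and 110, 87.8 and 93.7 in stretched KO libraries. Parp9 had a log2 fold change of 0.92 ± 0.11 in static (FDR 9.11e-05) and 1.01 ± 0.11 in stretched cells (FDR 4.36e-05). For Dtx3l, a ubiquitin ligase, the levels were 24.9, 20.0 and 19.6 CPM in static WT, 23.6, 28.2 and 25.1 in stretched WT, 49.3, 42.6 and 38.9 in static KO, and 64.9, 50.9 and 44.3 in stretched KO libraries. Dtx3l had a log2 fold change of 1.02 ± 0.16 in static (FDR 0.000668) and 1.06 ± 0.16 in stretched cells (FDR 0.000461). Parp14, an ADP-ribosyltransferase, was at 75.4, 82.1 and 57.5 CPM in static WT, 79.1, 82.3 and 56.7 in stretched WT, 196, 162 and 133 in static KO, and 221, 188 and 132 in stretched KO libraries. It rose by a log2 fold change of 1.19 ± 0.22 in static (FDR 0.00258) and 1.31 ± 0.22 in stretched cells (FDR 0.00132). Herc6, an Isg15 ligase in mouse, rose by 1.28 ± 0.40 in static cells (FDR 0.0445) and had 1.09 ± 0.39 under stretch (FDR 0.0754, and 0.000263 with the block). The static call for Herc6 was lost in 7 of 12 fits, those without WT static 1 or 3, WT stretch 1 or 2, KO static 1 or 2 or KO stretch 2, with an FDR of 0.170 without KO static 1, and the stretch comparison passed without KO stretch library 3 (FDR 0.0243).

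In the fit without a block, stretch gave no call among the 40 genes in either genotype. In WT cells 0 of the 40 genes passed the test, where 0.742% of all tested genes did, and in KO cells 0 of 40 against 0.796%. Without adjustment 6 of the 40 genes had p under 0.05 in WT and 3 in KO cells. Of all 14825 tested genes, 1403 in WT and 1153 in KO cells did so. DESeq2 also called 0 of the 40 in each, but its share over all tested genes is not given here. The median log2 fold change of stretch over static was 0.14 in WT and 0.13 in KO cells, beside 0.01 and 0.00 over all tested genes, with a median standard error of 0.20 and 0.19 over the 40 genes. In WT cells the 3 stretched libraries lay above the 3 static libraries in 11 of the 40 genes and below them in 1, where 6.92% and 8.49% of all tested genes did so. In KO cells this was so in 2 and 0 genes, against 5.38% and 7.14%.

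In single genes, Gbp2 went from a mean of 53.2 ± 1.97 to 76.3 ± 10.7 CPM with stretch in WT cells, a log2 fold change of 0.52 ± 0.15 (FDR 0.193), and the groups did not overlap. With the library number as a block 2 genes rose in WT cells, Gbp2 (FDR 0.00593) and Isg15 (0.60, FDR 0.0217), where 6.37% of all genes changed with the block. In KO cells the block also gave 2, Parp9 (0.36, FDR 0.0270) and Ifi44 (0.54, FDR 0.0360), where 4.42% of all genes changed. Rsad2 had opposite signs, 0.47 ± 0.18 in WT (FDR 0.407) and -0.38 ± 0.17 in KO cells (FDR 0.627). The test of the difference between the genotypes' responses to stretch passed for 0 of the 40 genes and for 0 of all 14825 genes. At unadjusted p under 0.05 were 336 of all 14825 genes and 3 of the 40. These were Rsad2 (-0.84 ± 0.25, FDR 1.0), Oasl (-0.82 ± 0.29, FDR 1.0) and Ifit3 (-0.77 ± 0.32, FDR 1.0), named after their values were seen. With the block and with DESeq2 the count among the 40 was also 0. With the block 0.0135% of all genes passed, and the share with DESeq2 is not given here.

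**Figure D4:**
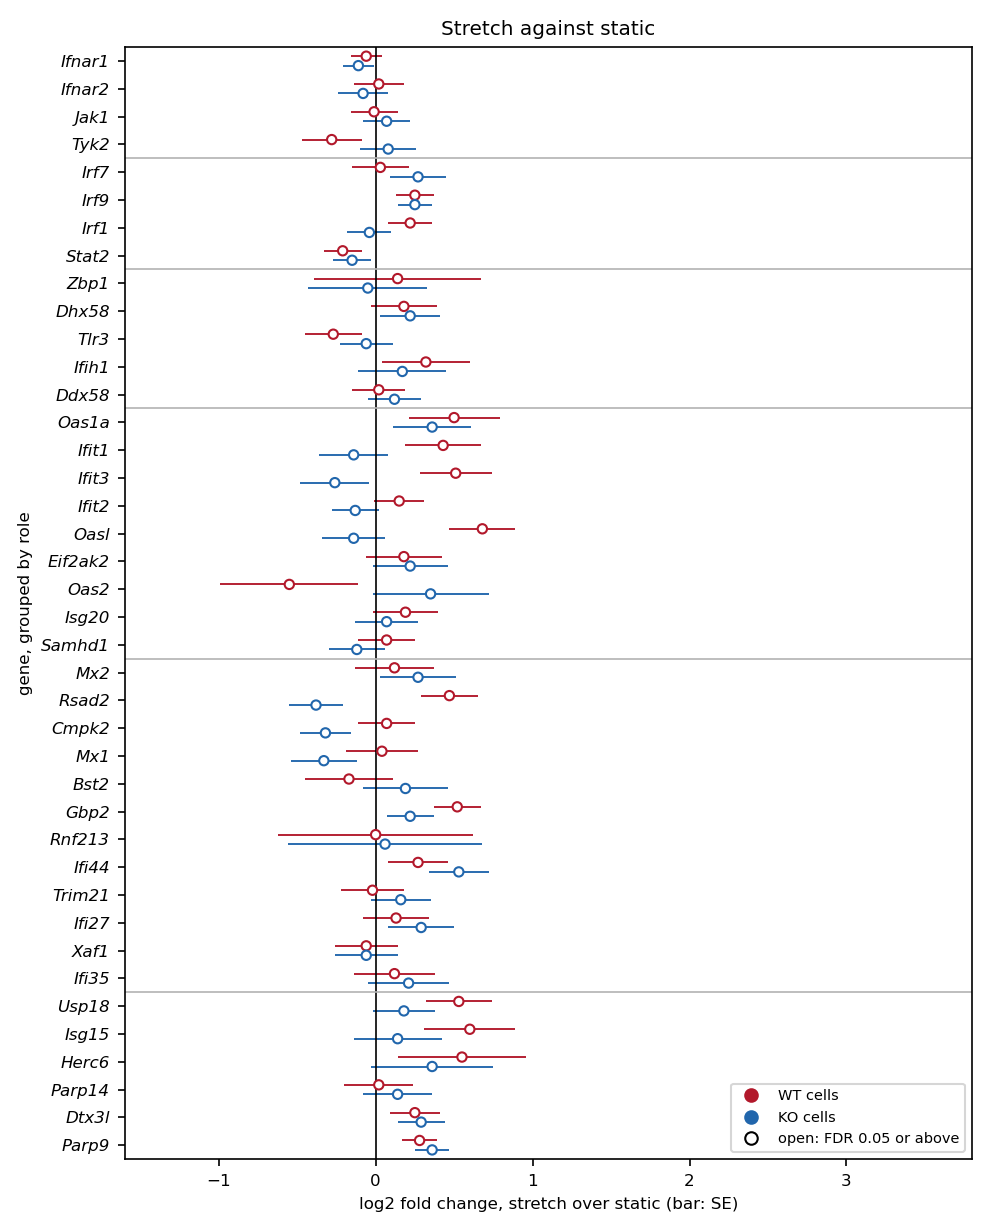
Log2 fold change of stretch over static for each of the 40 genes in WT (red) and KO (blue) cells, with the standard error as a bar, on the same scale as the plot of KO over WT. All points are open (FDR 0.05 or above) and lie between -0.55 and 0.68.

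Reads in introns, which can come from RNA not yet spliced, were examined as a further readout of the same libraries, chosen after seeing the data. Their origin in these poly(A)-selected libraries was not tested. Intron reads were enough to test 39 of the 40 genes. In static cells 14 of these rose and 0 fell, against 4.78% and 2.92% of all 15577 genes tested on intron reads, and under stretch 15 rose and 0 fell, against 5.62% and 3.26%. The median log2 fold change was 0.96 in static and 0.78 in stretched cells. Irf7 had intron log2 fold changes of 2.40 ± 0.35 (FDR 0.000952) and 2.32 ± 0.34 (FDR 0.00103), beside exon values of 2.27 and 2.51. Dhx58 had 2.15 ± 0.27 (FDR 0.000335) and 2.11 ± 0.26 (FDR 0.000292). Mx2 had intron values of 2.11 ± 0.26 (FDR 0.000282) and 2.09 ± 0.25 (FDR 0.000238) beside exon values of 3.03 and 3.18, a difference that was not tested, and Usp18 had 1.47 ± 0.23 (FDR 0.00170) and 1.45 ± 0.23 (FDR 0.00168). Rnf213, which missed the threshold on exon reads, passed on intron reads at 0.96 ± 0.26 (FDR 0.0415) and 0.92 ± 0.26 (FDR 0.0448). Isg15 had 10 to 48 intron reads per library and intron log2 fold changes of -0.23 ± 0.48 (FDR 0.878) and 0.07 ± 0.50 (FDR 0.965).

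**Figure D5:**
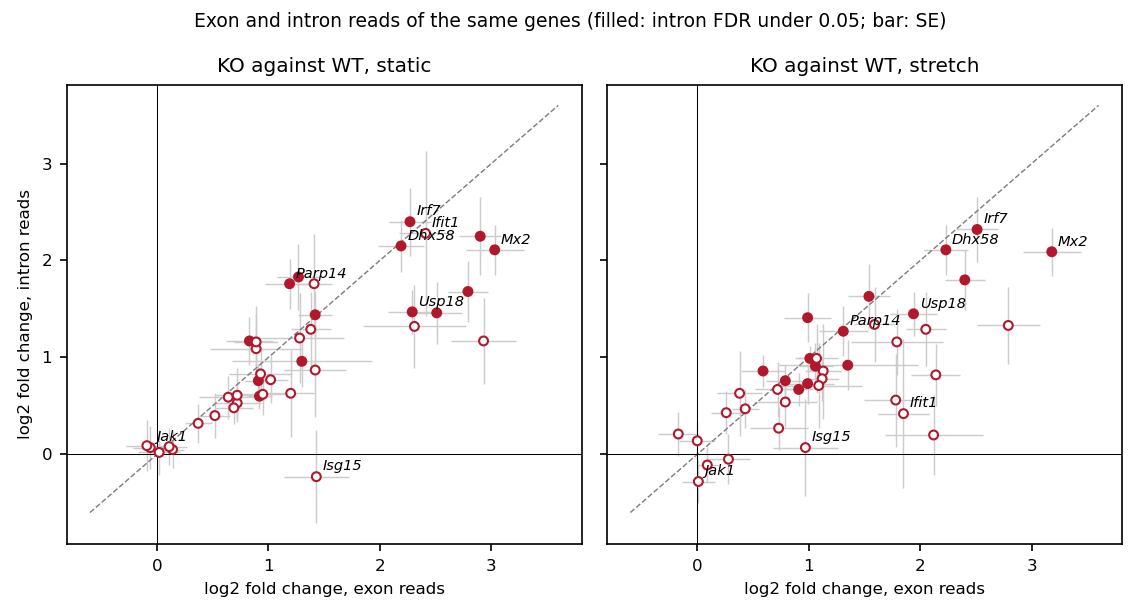
Log2 fold change of KO over WT from exon reads (horizontal) and from intron reads (vertical) of the same 39 genes, in static and stretched cells, with standard errors as bars and a dashed line of equal change. Filled points passed FDR under 0.05 on intron reads, which are 14 genes in static and 15 in stretched cells, and Isg15 lies far below the line in static cells.

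Other genes of interferon induction and signalling, a list of 31, were measured beside the 40. Of these, 27 were in the table and 18 passed the filter. In each KO comparison 6 of the 18 rose and 0 fell, where 12.1% and 11.9% of all tested genes rose in static and stretched cells, and the median change was 0.28 in static and 0.35 in stretched cells on the log2 scale. With the block the static count was 11 and the stretch count 9, where 19.8% and 19% of all tested genes rose. Irf8, a factor best known from myeloid cells, was at 1.36, 2.28 and 1.54 CPM in static WT, 1.55, 0.893 and 1.29 in stretched WT, 15.8, 16.9 and 19.7 in static KO, and 15.1, 16.9 and 17.3 in stretched KO libraries. Its genotypes did not overlap, with a log2 fold change of 3.36 ± 0.22 (FDR 8.47e-07) and 3.72 ± 0.22 (FDR 4.11e-07). Ifngr2, a chain of the receptor for interferon gamma, rose by 0.72 ± 0.12 (FDR 0.00139) and 0.73 ± 0.12 (FDR 0.00127), and Irf5 by 0.64 ± 0.12 (FDR 0.00195) and 0.62 ± 0.12 (FDR 0.00230). Socs1, which inhibits the receptor kinases, rose in static cells (1.30 ± 0.25, FDR 0.00317) and had 0.55 ± 0.25 under stretch (FDR 0.163). Il10rb, shared by the receptors for interferon lambda and interleukin-10, rose by 0.34 ± 0.09 (FDR 0.0143) and 0.43 ± 0.09 (FDR 0.00365).

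The 7 interferon genes examined were scarcely detected, and Ifna4 was the only interferon alpha gene among them. Ifnb1, the interferon beta gene that non-immune cells make first, had 0 or 1 read in each of the 12 libraries. Ifna4, Ifng, Ifnl1 and Ifnl3 had at most 3 reads in a library and Ifnk at most 4. Ifne reached 18 reads, in KO static library 2, with a mean of 0.135, 0.161, 0.386 and 0.345 CPM in WT static, WT stretch, KO static and KO stretch. None of these 7 genes passed the filter on low counts. A library with 0 reads allows up to 3 reads, and no difference between groups was tested for these genes.

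A second list of 50 further interferon-stimulated genes had 46 in the table and 44 tested. In static cells 31 rose and 1 fell, against 12.1% and 8.66% of all tested genes. Under stretch 30 rose and 1 fell, against 11.9% and 8.73%, and the medians were 1.02 and 1.00 on the log2 scale. Gbp5, a relative of Gbp2, was at 7.84, 8.71 and 8.74 CPM in static WT, 12.8, 11.8 and 12.8 in stretched WT, 59.7, 44.8 and 64.0 in static KO, and 60.1, 54.8 and 56.0 in stretched KO libraries. Its log2 fold change was 2.74 ± 0.13 (FDR 1.18e-07) and 2.19 ± 0.13 (FDR 3.91e-07). Psmb8, a subunit of the immunoproteasome, was at 2.64, 1.74 and 3.12 CPM in static WT, 2.93, 2.43 and 3.32 in stretched WT, 23.0, 21.2 and 35.1 in static KO, and 24.6, 23.0 and 35.3 in stretched KO libraries. The log2 fold change of Psmb8 was 3.39 ± 0.28 (FDR 4.74e-06) and 3.25 ± 0.27 (FDR 5.27e-06). The immunity-related GTPase Igtp rose by 1.53 ± 0.12 (FDR 3.95e-06) and 1.64 ± 0.12 (FDR 2.32e-06), and Irgm of the same family by 1.53 ± 0.13 (FDR 5.94e-06) and 1.37 ± 0.13 (FDR 1.24e-05). Trim34 rose by 1.01 ± 0.11 (FDR 3.47e-05) and 1.43 ± 0.11 (FDR 2.54e-06).

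Stretch of WT cells raised 1 gene of this second list, Cxcl10, a chemokine induced by interferon, and 0 of the first list, in which 3 genes had p under 0.05 without adjustment and DESeq2 called 1. Of all 14825 tested genes 0.742% changed, and 1403 had p under 0.05 without adjustment. The share that DESeq2 called is not given here. Cxcl10 was at 16.3, 21.8 and 26.2 CPM in static WT, 42.9, 40.1 and 54.1 in stretched WT, 88.1, 64.8 and 95.9 in static KO, and 76.8, 79.5 and 88.3 in stretched KO libraries. The stretched WT libraries lay above the static ones and below all KO libraries, with a log2 fold change of 1.09 ± 0.19 for stretch in WT (FDR 0.0278). KO over WT gave 1.95 ± 0.20 in static (FDR 2.32e-05) and 0.84 ± 0.19 in stretched cells (FDR 0.00802). Cxcl10 is uncertain, because 38.1% of its exon reads mapped uniquely, and on unique reads alone the stretch call was lost (FDR 0.403) and so was that of KO under stretch (0.36, FDR 0.626), while KO in static cells kept it (2.04, FDR 0.00446). Leaving out any of 7 of the 12 libraries also ended the stretch call (WT static 1 or 2, WT stretch 1, 2 or 3, KO static 1 or KO stretch 2), with FDR up to 0.113 without WT static 1, and leaving out WT stretch library 2 ended that of KO under stretch (FDR 0.0606). With the block 5 genes of the second list and 2 of the first changed with stretch in WT cells, where 6.37% of all tested genes did. In the second list 2 rose and 3 fell, and in the first 1 rose and 1 fell.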

How the data were processed

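RNA was extracted with TRIZOL and 500 ng per sample went into poly(A)-selected, directional libraries read as 36-base pairs on a NextSeq500, per the labels' protocols. Total and unique exon read counts and intron read counts per gene, raw, were deposited by the authors, who used CLC Genomics Workbench 12.0 and the build Rnor_6.0, per the submitters' processing notes. RPKM values were also computed by the authors, per the file headers. The authors' deposited table also gives a signed fold change, a score, and a false discovery rate p-value for each comparison from their EDGE test, per the file headers. Whether counting used strand is not given in the sources used here.

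From the counts, genes were filtered with filterByExpr (edgeR 4.0.16 in R 4.3.3, minimum count 10), scaled by TMM and fitted with 1 mean per group over all 12 libraries, leaving 8 residual degrees of freedom. The contrasts KO over WT in static and in stretched cells, stretch over static in WT and in KO cells, and their difference were tested with the quasi-likelihood F test and Benjamini-Hochberg adjustment over 14825 genes. CPM values use the TMM-scaled library sizes, and ± is SE for a log2 fold change and SD (n = 3) for a level.

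Alternatives were RLE and upper-quartile scaling, no filter, a filter at 1 CPM in 6 libraries, DESeq2 1.42.0, unique exon reads, the library number as a block, the groups compared alone in the fit, numbers 1 and 2 alone, limma 3.58.1 on log2(RPKM + 0.5) and leaving out each library. Intron reads were added after seeing the data. Libraries with the same number deviated together, with r of 0.18 to 0.26, 0.14 to 0.28 and 0.43 to 0.58 for numbers 1, 2 and 3 (6 pairs each). Pairs of different number had r of -0.43 to 0.31 (36 pairs), a range that holds the values for numbers 1 and 2. The numbers may thus pair the samples. The fit reported does not use this pairing, and the fit with the block does. The common dispersion, an estimate of the spread, was 0.0437 without the block and 0.00961 with it.

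The members and gene lists were chosen with earlier results of these data known. Genes past the threshold in any comparison were described, the 20 with the smallest adjusted p-values with all their values. In a role class with none, the gene with the highest RPKM was described. In the further lists the 4 genes with the smallest adjusted p-values were named. Genes under 80% unique exon reads are called uncertain. Of the listed genes, 8 are not analysed here. The single fall in the further list is not reported here by name.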

Additional observations from a re-analysis of the deposited data

How the results depend on the processing

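Of the 32 rises in static and 28 under stretch, 23 and 24 were kept in every fit that left out 1 library, with 25 to 33 and 24 to 30 genes called. On intron reads 13 of the static and 13 of the stretch rises were kept. In all, 14 and 15 genes rose on intron reads, against 4.78% and 5.62% of all genes tested on them. Stat2 in static cells missed the threshold under RLE and upper-quartile scaling, no filter, the groups compared alone, numbers 1 and 2 alone, and log2 RPKM. In static cells Isg20 and Irf1 also missed it under upper-quartile scaling and log2 RPKM, and Xaf1 with the groups compared alone and with numbers 1 and 2 alone. Under stretch Stat2 missed it with the groups compared alone and Isg15 with log2 RPKM. With the replicate block, stretch raised 2 genes in WT cells and also 2 in KO cells, and the block changed no call of the 40 beyond those named in the report. In the induction and signalling list, stretch in WT gave 1 gene with DESeq2, 2 with the replicate block and 2 with numbers 1 and 2 alone, and stretch in KO gave 1 with numbers 1 and 2 alone. KO in static cells gave 11 with the block, 10 with numbers 1 and 2 alone and 2 on intron reads, and KO under stretch 1 on intron reads. In the further list, stretch in WT gave 0 genes with upper-quartile scaling, unique reads, the groups compared alone, log2 RPKM or intron reads, 3 with DESeq2, 5 with the block, 2 with numbers 1 and 2 alone, and 0 to 2 without 1 library. Stretch in KO gave 1 with the block, and KO 13 in static and 14 in stretched cells on intron reads. The share of all tested genes called also moved with the setting. For stretch it was 0.742% in WT and 0.796% in KO cells, and 6.37% and 4.42% with the block. For rises in KO over WT it was 12.1% in static and 11.9% in stretched cells, and 19.8% and 19% with the block. Apart from the intron shares above, the shares under the other settings are not given here. The cause of these shifts was not tested.

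Apart from Isg15, the signs that turned belong to values that missed the threshold in the fit reported. On intron reads Isg15, which rose on exon reads, gave -0.23 for KO in static cells (FDR 0.878) and -0.73 for stretch in WT, Jak1 0.07 and -0.28, Tyk2 0.09 and -0.05 (KO in static and stretched cells), and under stretch Samhd1 0.21 and Ifnar1 -0.11. With numbers 1 and 2 alone Samhd1 gave -0.01 and Ifnar2 -0.05 in static cells, and Ifnar2 -0.02 under stretch, where RLE and DESeq2 gave -0.01 for Ifnar2 and 0.00 for Jak1. Without 1 library, static values ran from -0.11 to 0.13 for Samhd1, from -0.06 to 0.21 for Ifnar2, from -0.15 to 0.05 for Jak1 and from -0.19 to 0.04 for Tyk2. Under stretch they ran from -0.06 to 0.04 for Ifnar2 and from -0.08 to 0.14 for Jak1. Depth limits Zbp1, Oas2 and the interferon genes, and Zbp1 and Oas2 did not pass the stricter filter.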
